A study of Mus musculus with 115 samples.

Results

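The 9 genes described here carry the signal from adrenaline and noradrenaline in the mouse heart. They were taken by name, with earlier results of these data known: the receptors Adrb1, Adra1a and Adra1b, the receptor kinases Adrbk1 (current symbol Grk2) and Grk5, the stimulatory G protein gene Gnas, the adenylyl cyclases Adcy5 and Adcy6, and the catalytic protein kinase A subunit Prkaca. Of the 9, 8 had a row among the 23930 amplicons of the count tables, and Gnas was not found under its symbol. Those 8 all passed the filter on low counts, which left 15403 genes tested.

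As background, the beta-1 receptor encoded by Adrb1 is the main route by which sympathetic nerves raise the rate and force of the heartbeat. The bound receptor activates the stimulatory G protein, adenylyl cyclase makes cyclic AMP, and protein kinase A then phosphorylates calcium channels, phospholamban, the ryanodine receptor and troponin I. Alpha-1 receptors act through another G protein, phospholipase C and protein kinase C. Receptor kinases phosphorylate occupied receptors so that arrestins bind them and the signal ends, and long-lasting adrenergic drive is known to lower beta-1 receptors and raise Grk2 in failing hearts.

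Hearts came from C57BL/6JEiJ mice of 3 genotypes: wild type, Ant1-/-, which lack the heart's main mitochondrial ADP/ATP carrier (gene Slc25a4), and Ant1-/- that also carry P25L in ND6, a mitochondrially encoded subunit of respiratory complex I. Every mouse received 2.5e+11 vector genomes by pericardial injection, either AAV2/9Des-Gfp-mAnt1, called the Ant1 vector, or AAV2/9Des-Gfp, called the control vector, so no group is free of virus and Gfp. Targeted amplicon libraries of total heart RNA were read as repeat libraries of 1 heart where number, genotype and title code agreed, which gave 22 hearts from 110 libraries. With the control vector there were 4 wild-type, 3 Ant1-/- and 3 Ant1-/- ND6 P25L hearts, and with the Ant1 vector 3, 4 and 3. The labels state neither age nor sex, and the collection times of 1, 3, 6, 9 and 12 months after injection are not tied to single hearts, so time is not separated from group. Which promoter drives the insert is not spelled out in the labels. Nothing in them says that hearts of a group came from separate litters or days, so p values measure the spread between these hearts.

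Slc25a4 checked the labels. It lay between 8464 and 11380.4 CPM (read counts of an amplicon scaled to equal heart totals) in wild-type hearts with the control vector and from 8968 to 10258 with the Ant1 vector. With the control vector it was 0.331 to 2.03 in Ant1-/- and 0.219 to 0.851 in Ant1-/- ND6 P25L hearts. The Ant1 vector hearts had 174 to 241 CPM in Ant1-/-, and 55.6, 66.7 and 0.732 CPM in Ant1-/- ND6 P25L hearts 37, 5 and 8. The heart labelled 8 lies within the control vector range, so values of its group are also given without it where that changes a call or a count. A further 2 Ant1-/- ND6 P25L hearts, 61 and 91, are labelled with the control vector but coded as the Ant1 vector in their titles. They held 169 and 151 CPM, above the control vector range, which goes with the title code, and stand as a group of their own. Libraries 80a and 80b, whose labels conflict in the same way, were assigned to no group. Library totals ran from 2893780 to 8531273 counts and heart totals from 16827518 to 54779297, which leaves 150 to 300 counts for Adrb1, the sparsest of the 8 genes, in each heart. The 10 cardiomyocyte markers summed to 54214 to 64221 CPM in wild-type control vector hearts and between 57265 and 73361 CPM in the other groups.

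Hearts 27 (Ant1-/-) and 37 (Ant1-/- ND6 P25L), both given the Ant1 vector, stand apart because their 8 libraries each, spread over 2 tables, differ between those tables. Libraries of heart 37 separate by table for Adra1a, Adrb1 and Adcy6, but only for Adra1a by more than in other hearts. Adra1a in heart 27 was 8.29 to 15.9 CPM in 4 libraries and 21.5 to 29.6 CPM in the other 4. Adcy5 there was 68.7 to 87.3 against 116.9 to 156 CPM, and Adcy6 68.4 to 116.9 against 159.7 to 294 CPM. The ratio between the table means in heart 27 was 2.20 for Adra1a, 1.72 for Adcy5 and 2.22 for Adcy6, where the 19 other hearts in more than 1 table reached at most 1.37, 1.19 and 1.49. It was also above those hearts for Adrbk1 (1.51 against at most 1.30), Prkaca (1.39 against 1.22) and Grk5 (1.32 against 1.29). In heart 37 the ratio for Adra1a was 1.54, above those 19 hearts, and for the other 7 genes it was within their range (1.02 for Adcy5, 1.04 for Prkaca). Adrb1 in heart 37 was 5.74 to 6.86 against 1.73 to 4.42 CPM, a ratio of 2.01 where the other hearts reached 2.18. Adcy6 there was 161 to 190 against 195 to 228 CPM, a ratio of 1.24 where they reached 1.49. Values without these hearts are given where leaving them out makes or ends a call or moves a count. No table holds the compared control vector and Ant1 vector groups side by side. In those comparisons a vector difference and a difference between tables cannot be told apart. Hearts 61 and 91 share 2 tables with control vector hearts 22 and 70, but their labels conflict and they entered no comparison of the main fit. Of the mutant hearts compared, few share a table with wild type. They are Ant1-/- heart 35 and Ant1-/- ND6 P25L heart 22 with the control vector, and Ant1-/- heart 20 with the Ant1 vector. For the other mutant hearts, a difference from wild type is also one between tables.

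**Figure D1:**
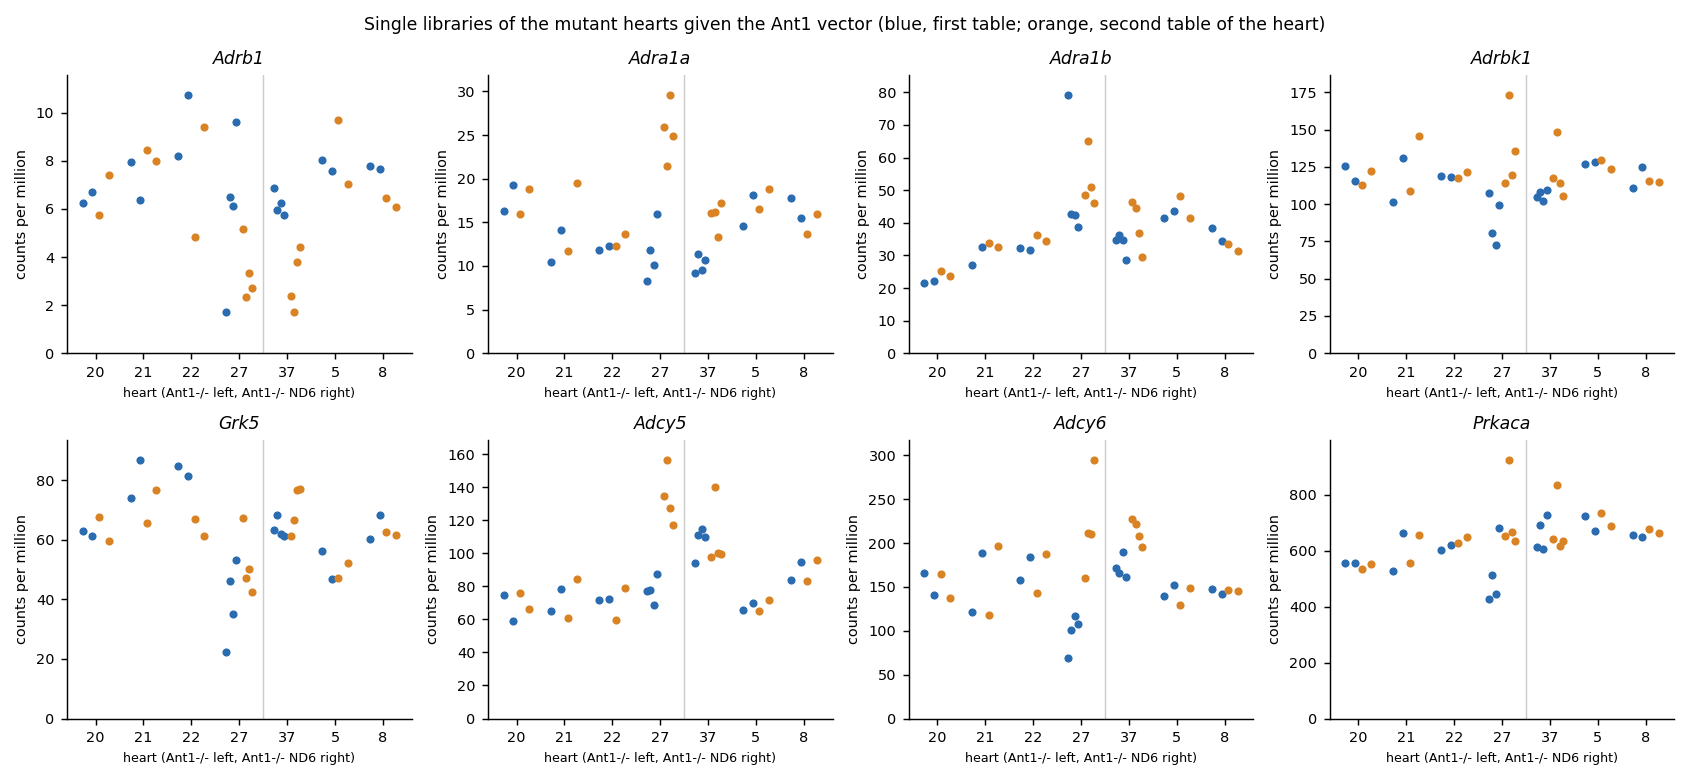
CPM (vertical axes) of the 8 genes in every single library of the 7 mutant hearts given the Ant1 vector, by heart number, with blue and orange points for the first and second table that held the heart's libraries. In heart 27 the orange points for Adra1a, Adrbk1, Adcy5 and Adcy6 all lie above the blue ones. In heart 37 those for Adra1a and Adcy6 do so, and Adrb1 does the reverse.

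For the genes whose levels differed between groups, the sequence around the start is shown so that the cyclic AMP response element half-site TGACG, which CREB-type factors bind, can be looked for in the pathway's own promoters. RefSeq's GRCm38.p6 windows (250 bases before to 50 after the start) were present for 6 of the 9 genes. Adra1a, Adrbk1 and Adcy6 had no entry. The windows of Gnas, which had no row in the counts, and of the second start of Prkaca are not shown. The capitals mark TGACG, or CGTCA where it lies on the other strand. Each window is written 5′ to 3′ on its gene's strand.
Adrb1 (chr19:56721867-56722166, plus strand): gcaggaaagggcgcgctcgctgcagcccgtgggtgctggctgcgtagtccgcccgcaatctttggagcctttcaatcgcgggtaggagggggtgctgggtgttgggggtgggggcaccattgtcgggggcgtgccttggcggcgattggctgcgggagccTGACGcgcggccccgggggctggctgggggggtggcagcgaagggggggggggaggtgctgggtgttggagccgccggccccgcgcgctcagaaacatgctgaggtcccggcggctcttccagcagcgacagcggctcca
Adra1b first start (chr11:43901188-43901487, minus strand): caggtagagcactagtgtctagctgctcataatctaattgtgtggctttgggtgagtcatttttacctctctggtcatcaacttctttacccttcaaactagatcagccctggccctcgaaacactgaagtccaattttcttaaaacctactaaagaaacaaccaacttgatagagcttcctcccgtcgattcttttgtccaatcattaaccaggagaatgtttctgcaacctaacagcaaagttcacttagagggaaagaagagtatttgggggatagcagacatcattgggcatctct
Adra1b second start (chr11:43836440-43836739, minus strand): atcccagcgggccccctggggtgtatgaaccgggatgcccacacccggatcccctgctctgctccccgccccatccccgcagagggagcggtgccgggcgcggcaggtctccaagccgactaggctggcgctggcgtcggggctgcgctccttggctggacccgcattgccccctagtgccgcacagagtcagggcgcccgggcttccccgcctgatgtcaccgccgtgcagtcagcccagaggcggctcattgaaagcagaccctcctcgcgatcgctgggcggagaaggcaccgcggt
Grk5 (chr19:60889499-60889798, plus strand): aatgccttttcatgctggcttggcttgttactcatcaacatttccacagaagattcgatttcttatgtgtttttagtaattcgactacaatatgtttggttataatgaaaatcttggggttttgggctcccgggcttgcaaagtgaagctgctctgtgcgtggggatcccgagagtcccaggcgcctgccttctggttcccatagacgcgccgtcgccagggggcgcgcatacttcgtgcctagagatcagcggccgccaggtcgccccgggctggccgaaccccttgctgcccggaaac
Adcy5 (chr16:35154614-35154913, plus strand): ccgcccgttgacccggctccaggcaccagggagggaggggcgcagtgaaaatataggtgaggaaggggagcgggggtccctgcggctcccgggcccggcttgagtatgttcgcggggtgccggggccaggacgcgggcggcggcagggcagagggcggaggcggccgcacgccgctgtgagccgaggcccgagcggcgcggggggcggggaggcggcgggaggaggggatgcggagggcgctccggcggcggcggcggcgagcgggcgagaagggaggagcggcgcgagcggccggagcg
Prkaca first start (chr8:83972728-83973027, plus strand): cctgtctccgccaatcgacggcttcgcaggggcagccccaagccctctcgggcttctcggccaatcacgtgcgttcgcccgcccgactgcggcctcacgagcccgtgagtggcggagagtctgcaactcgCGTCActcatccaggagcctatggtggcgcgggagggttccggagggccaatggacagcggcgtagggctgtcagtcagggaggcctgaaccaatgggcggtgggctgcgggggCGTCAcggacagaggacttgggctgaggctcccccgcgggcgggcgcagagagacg
TGACG on either strand was found once in the Adrb1 window and 2 times at the first start of Prkaca. Neither start of Adra1b holds it, nor do the windows of Grk5 and Adcy5. The second start of Prkaca (chr8:83976633-83976932, plus strand) holds neither TGACG nor GGGCGG. Among 32851 RefSeq promoter windows of the same length, 20.8% hold TGACG, and 1.79% hold the full palindrome TGACGTCA, which none of the windows shown contains. GGGCGG on either strand, the GC box, was found 4 times in the Adcy5 window, 3 times at the first start of Prkaca, 2 times at the second start of Adra1b and once in Adrb1, against 35.7% of all windows with at least 1. A match is a description of the letters only.

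Adrb1, both alpha-1 receptors, Grk5 and Adcy5 were each lower in mutant than in wild-type hearts in at least 1 comparison, and Prkaca was higher in 1. With the control vector, Ant1-/- hearts had lower Adra1a (1.60-fold) and Grk5 (1.41-fold) than wild type, so 2 of 8 genes passed an adjusted p of 0.05 (edgeR quasi-likelihood test, Benjamini-Hochberg), where 14.4% of all 15403 genes did. Ant1-/- ND6 P25L hearts had lower Adra1b (1.87-fold) and Adcy5 (1.43-fold), again 2 of 8, beside 12.7% of all genes. These comparisons share the wild-type hearts. The median log2 change of the 8 genes was -0.30 and -0.22, against -0.026 and -0.010 over all tested genes.

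Between the mutant genotypes under the control vector, 0 of 8 passed in edgeR, beside 1.06% of all genes, with 2 of 8 at an unadjusted p under 0.05 and 0 in DESeq2. Under the Ant1 vector, Ant1-/- hearts had lower Adra1b and Grk5 than wild type, 2 of 8 beside 9.89% of all genes. Ant1-/- ND6 P25L hearts there had lower Adrb1, Adra1b and Grk5 and higher Prkaca, 4 of 8 beside 19.5% of all genes. Between vectors, 0 of 8 passed in edgeR in Ant1-/- (5.47% of all genes), Ant1-/- ND6 P25L (2.53%) and wild type (0.117%). At an unadjusted p under 0.05 the counts were 2, 0 and 1, and DESeq2 called 0 in each. Tests of whether the vector difference differed from that in wild type called 0 of 8 in Ant1-/- (0.5% of all genes) and 0 of 8 in Ant1-/- ND6 P25L (0.273%), with 1 and 0 at an unadjusted p under 0.05 and 0 in DESeq2 for both.

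**Figure D2:**
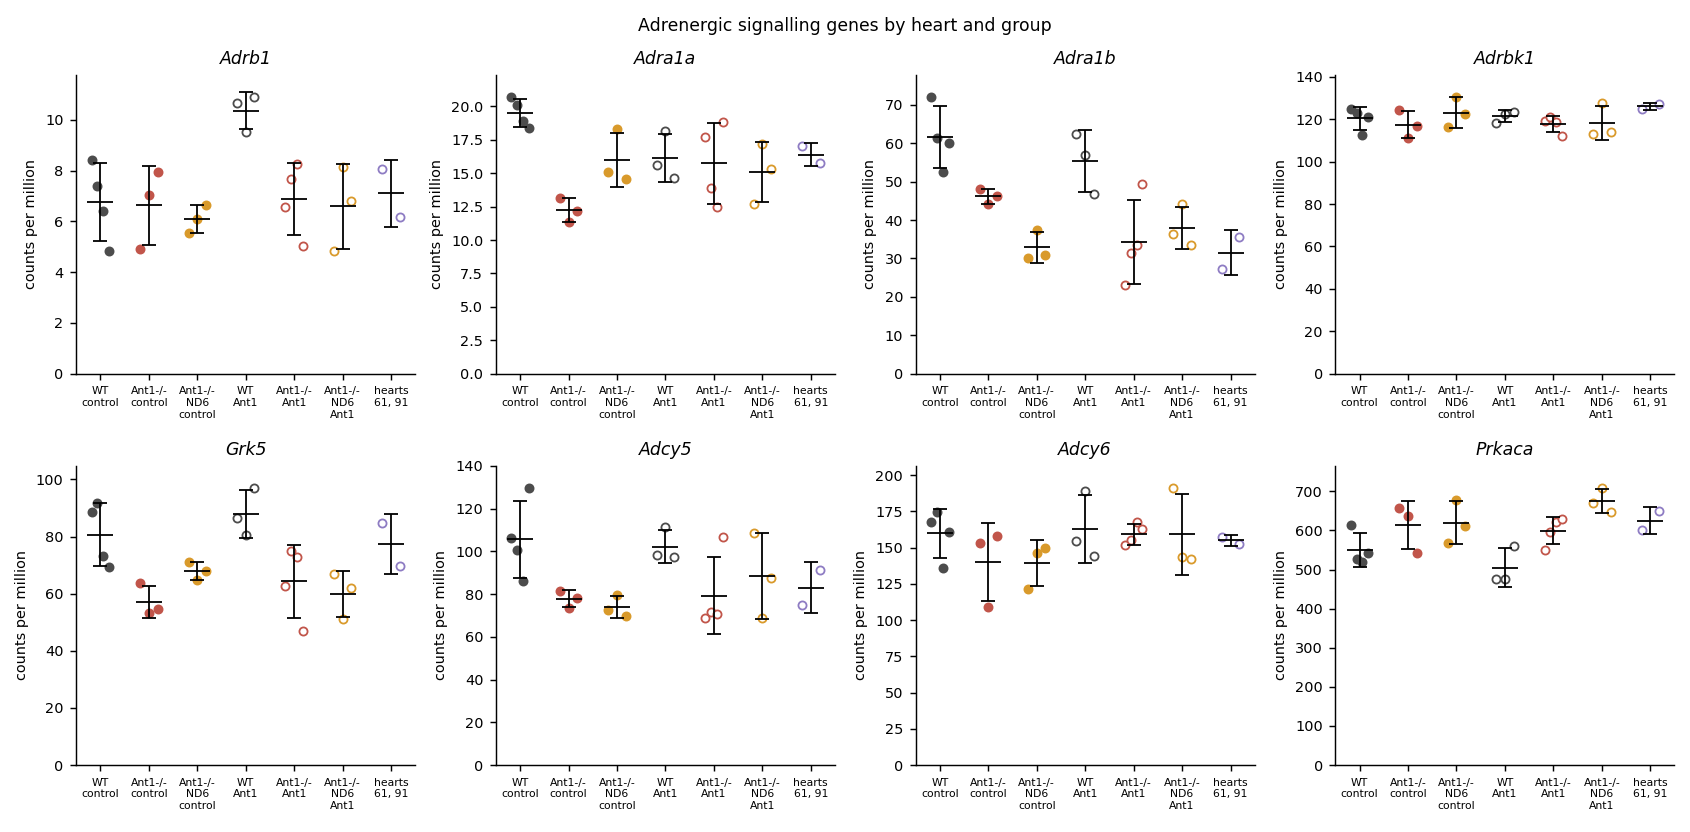
CPM (vertical axes, from 0) of the 8 genes in each heart, by genotype and vector, with filled points for the control vector, open points for the Ant1 vector or for hearts 61 and 91, and bars for the mean ± SD. Adra1b in the 3 Ant1-/- ND6 P25L control vector hearts sits at 30.1 to 37.4 CPM, below the 52.5 to 72.1 CPM of the 4 wild-type hearts, while Adrbk1 spans 111 to 131 CPM over all hearts.

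Adrb1, the beta-1 receptor (chr19:56722199-56733113, GRCm38), was at 8.43, 7.41, 6.41 and 4.83 CPM in wild-type control vector hearts 23, 24, 25 and 70. Ant1-/- hearts 35, 36 and 38 had 4.90, 7.05 and 7.93 CPM, and Ant1-/- ND6 P25L hearts 20, 21 and 22 had 5.56, 6.10 and 6.65 CPM. The 3 groups overlap, and the log2 change from wild type was -0.030 (95% interval -0.46 to 0.40) and -0.15 (-0.58 to 0.28), neither past the threshold (adjusted p = 0.945 and 0.703, edgeR). Within single tables, Ant1-/- heart 35 against wild-type hearts 23, 24 and 25 gave -0.74 to -0.35 in 3 tables, and Ant1-/- ND6 P25L heart 22 against wild-type heart 70 gave 0.16 to 0.68 in 2. Wild-type hearts 80, 81 and 83 with the Ant1 vector had 10.7, 9.53 and 10.9 CPM. These 3 were above every other heart of the study. Against the wild-type control vector hearts the log2 difference was 0.61 (SE 0.20, 1.53-fold), with p = 0.00683 unadjusted and 0.240 adjusted in edgeR.

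Among Ant1 vector hearts, Adrb1 was 6.58, 7.65, 8.25 and 5.03 CPM in Ant1-/- hearts 20, 21, 22 and 27, and 4.83, 8.14 and 6.80 CPM in Ant1-/- ND6 P25L hearts 37, 5 and 8. All 7 mutant hearts lay below the 3 wild-type hearts. Adrb1 fell by 0.66 on the log2 scale in Ant1-/- ND6 P25L (1.58-fold lower, SE 0.22, adjusted p = 0.0393, edgeR). The Ant1-/- difference of -0.60 (SE 0.20) gave an adjusted p of 0.0680. Without hearts 27 and 37 the first became -0.48 with an adjusted p of 0.119 and ended the call, and leaving out any 1 of hearts 37, 8, 80, 81 or 83 did so too (adjusted p up to 0.178). It was also lost with libraries a and b only (adjusted p = 0.239) and with library table as a covariate (0.0550). Heart 20 and the wild-type hearts share 2 tables, where the log2 ratio was -0.73 to -0.65. Tables hold no Ant1-/- ND6 P25L heart beside wild type under this vector. Mutant hearts ranged over 5.03 to 8.25 and 4.83 to 8.14 CPM with the Ant1 vector and 4.90 to 7.93 and 5.56 to 6.65 CPM with the control vector. Wild-type hearts ranged over 9.53 to 10.9 and 4.83 to 8.43 CPM. The vector difference minus that in wild type was -0.57 in Ant1-/- and -0.51 in Ant1-/- ND6 P25L, neither past the threshold (adjusted p = 0.373 and 0.570, edgeR).

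Adra1a, the alpha-1A receptor (chr14:66635251-66771168), was at 20.7, 20.1, 18.9 and 18.4 CPM in the wild-type control vector hearts and at 13.1, 11.3 and 12.2 CPM in Ant1-/- hearts. Every Ant1-/- heart was below every wild-type heart. Adra1a fell by 0.68 on the log2 scale (SE 0.14, 95% interval -0.96 to -0.40, adjusted p = 0.00167, edgeR). The call held without any 1 of the 7 hearts (adjusted p 0.00232 to 0.0147). Within the 3 tables that hold Ant1-/- heart 35 beside wild-type hearts 23, 24 and 25, the log2 ratio was -0.79 to -0.42. Ant1-/- ND6 P25L hearts had 15.1, 18.3 and 14.6 CPM, also below wild type in all 3 but by 1.22-fold (adjusted p = 0.168). Between the mutants the log2 difference was 0.39 (SE 0.14, adjusted p = 0.193) with no overlap of hearts. With library table as a covariate that difference was 0.44 (adjusted p = 0.00307), in a fit of single libraries whose p values can be too small.

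For Adra1a the genotypes were closer with the Ant1 vector, at 15.6, 18.1 and 14.6 CPM in wild type, 17.7, 13.9, 12.5 and 18.9 CPM in Ant1-/- and 12.7, 17.2 and 15.3 CPM in Ant1-/- ND6 P25L hearts. The groups overlap. Log2 differences from wild type were -0.033 (95% interval -0.31 to 0.25) and -0.10 (-0.40 to 0.20). The Ant1 vector difference was 0.37 in Ant1-/- (adjusted p = 0.108) and -0.27 in wild type (adjusted p = 0.438), and the test of the difference between them gave 0.64 (SE 0.19, unadjusted p = 0.00276, adjusted p = 0.117, edgeR). With library table as a covariate it was 0.79 (adjusted p = 0.00731). Heart 27, at 18.9 CPM the highest of the Ant1-/- Ant1 vector hearts, is the one whose tables disagree for this gene, and without hearts 27 and 37 the difference was 0.54 (adjusted p = 0.0909).

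Adra1b, the alpha-1B receptor (chr11:43774606-43901210), was at 72.1, 61.4, 52.5 and 60.0 CPM in wild-type control vector hearts, 48.1, 44.3 and 46.2 CPM in Ant1-/- and 30.1, 37.4 and 31.0 CPM in Ant1-/- ND6 P25L hearts. None of these 3 groups overlap, and they order as wild type, Ant1-/-, Ant1-/- ND6 P25L. Adra1b fell by 0.91 on the log2 scale in Ant1-/- ND6 P25L (SE 0.18, 95% interval -1.28 to -0.53, adjusted p = 0.00213, edgeR), and the call held without any 1 of the 7 hearts (adjusted p 0.00220 to 0.0177). Ant1-/- ND6 P25L heart 22 and wild-type heart 70 share 2 tables, where the log2 ratio was -1.06 to -0.95. The Ant1-/- difference from wild type was -0.41 (adjusted p = 0.123), and that between the mutants -0.49 (adjusted p = 0.216), neither past the threshold. Without hearts 27 and 37, which are in neither group but enter the shared estimate of the spread, the Ant1-/- difference gave an adjusted p of 0.0370, and fits of the compared groups alone gave 0.0221 and 0.0112 for the same 2 differences.

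In hearts given the Ant1 vector, Adra1b was 62.5, 56.9 and 46.7 CPM in wild type, 23.2, 31.4, 33.6 and 49.3 CPM in Ant1-/- and 36.2, 44.0 and 33.5 CPM in Ant1-/- ND6 P25L hearts. The 3 Ant1-/- ND6 P25L hearts were below all wild-type hearts. Of the 4 Ant1-/- hearts, 3 were, and heart 27 lay within the wild-type range. Adra1b fell by 0.68 in Ant1-/- (SE 0.18, adjusted p = 0.0161) and by 0.55 in Ant1-/- ND6 P25L (SE 0.19, adjusted p = 0.0465). Leaving out wild-type heart 80 or 81 ended the first call (adjusted p = 0.0862 and 0.0512), and leaving out heart 37, 8, 80 or 81 ended the second (adjusted p up to 0.164). The first was also lost with the compared groups alone (adjusted p = 0.0722) and with libraries a and b only (0.0612). The second was lost with no filter on low counts (adjusted p = 0.0575) and with libraries a and b only (0.121). Both calls held without hearts 27 and 37 (-0.92, adjusted p = 0.000378, and -0.52, adjusted p = 0.0335). Heart 20 against wild type within 2 tables gave -1.25 to -1.25. Between vectors in Ant1-/- hearts the log2 difference was -0.42 (adjusted p = 0.160), and -0.65 without heart 27 (adjusted p = 0.0144). Hearts 61 and 91 had 27.3 and 35.6 CPM, within or below the ranges of both Ant1-/- ND6 P25L groups.

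In whole-heart RNA, fewer cells of a type and less RNA per cell cannot be told apart. Summed markers moved with these receptor differences in places. The 8 fibroblast markers summed to 1689.8 to 1751 CPM in wild-type control vector hearts, 1234 to 1544 in Ant1-/- and 1393 to 1516 in Ant1-/- ND6 P25L, with no overlap with wild type. Dcn held most of this sum, with group means of 1134, 845 and 1011 CPM in the same order. In Ant1-/- hearts the means of Col1a1 (165.4 against 161.9 CPM) and Col3a1 (55.8 against 44.8 CPM) were above wild type. Those of the other fibroblast markers were below it. In Ant1-/- ND6 P25L hearts only the Col3a1 mean (46.9 CPM) was above wild type. The 8 endothelial markers summed to 539 to 588, 537 to 552 and 565 to 636 CPM, and the 7 smooth muscle and pericyte markers to 564 to 600.1, 574 to 619 and 527 to 626 CPM, with overlap. The cardiomyocyte sum was 61857 to 64366 CPM in Ant1-/- and 63898 to 70610.2 in Ant1-/- ND6 P25L control vector hearts, at the upper end of wild type or above it. The 7 macrophage markers summed to 145 to 187 CPM in wild type, 123 to 158 in Ant1-/- and 99.7 to 129 in Ant1-/- ND6 P25L, the last below all wild-type hearts. The 8 neuron and Schwann cell markers summed to 35.5 to 64.1, 26.3 to 29.0 and 27.1 to 31.7 CPM, lower in both mutants without overlap. The 6 adipocyte markers summed to 62.5 to 493.7 CPM in wild type, 81.6 to 102.2 in Ant1-/- and 48.2 to 181.5 in Ant1-/- ND6 P25L. The 5 atrial markers summed to 4216.9 to 6991.45, 4679.4 to 5194.5 and 4698.85 to 5052.1 CPM. Both sets overlap with wild type. Means of the atrial genes Myl7 (1236.8, 796.8 and 796.0 CPM) and Sln (378.4, 264.0 and 261.2 CPM) were lower in both mutants. The Bmp10 mean was higher (84.5, 128.7 and 112.5 CPM). With the Ant1 vector, Ant1-/- ND6 P25L hearts differed from wild type without overlap in endothelial (729 to 798 against 595 to 680.1 CPM), smooth muscle and pericyte (596 to 707 against 539 to 575 CPM) and neuron and Schwann cell markers (21.5 to 27.4 against 32.7 to 36.3 CPM). The part of these shifts in the values of the 8 genes, and of the other pathway genes given below, was not tested.

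Other adrenergic receptors give the setting for these values. Adrb3, the beta-3 receptor, ranged from 0.0629 to 2.64 CPM over the 22 hearts. Adra2a, an inhibitory alpha-2 receptor, had 0 counts in 4 hearts and at most 5 counts in any, and was not tested. Adra1d, the alpha-1D receptor, was higher in Ant1-/- control vector hearts (19.6 to 21.0 CPM) than in wild type (12.6 to 15.7 CPM), by 0.54 (SE 0.15, adjusted p = 0.0219) on the log2 scale in edgeR, where Adra1a was lower. Adra2b, an alpha-2 receptor, was lower in Ant1-/- (-0.82, adjusted p = 0.00882) and in Ant1-/- ND6 P25L hearts (-0.96, adjusted p = 0.00387), at 2.92 to 3.97 CPM in wild type.

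Among the receptor kinases, Adrbk1 (chr19:4286001-4306222) varied little between hearts. It lay between 111 and 131 CPM over all 22 hearts, and its log2 difference was between -0.069 and 0.066 in the 10 comparisons. The 95% interval was -0.18 to 0.11 for Ant1-/- against wild type and -0.12 to 0.18 for Ant1-/- ND6 P25L, both with the control vector. None of the alternative fits that were run called it. Adrbk2 (current symbol Grk3), the closest relative of Adrbk1, was higher in Ant1-/- control vector hearts (20.7 to 26.0 CPM against 10.6 to 15.7 CPM), a log2 change of 0.78 (SE 0.17, adjusted p = 0.00334) in edgeR.

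Grk5 (chr19:60889749-61095968), a kinase that in addition to its receptor role acts in the cardiomyocyte nucleus, was at 88.6, 91.8, 73.0 and 69.3 CPM in wild-type control vector hearts. Ant1-/- hearts had 63.7, 53.1 and 54.5 CPM, all below wild type, and Ant1-/- ND6 P25L hearts 71.2, 64.7 and 67.9 CPM, which overlap with it. Grk5 fell by 0.50 on the log2 scale in Ant1-/- (SE 0.14, adjusted p = 0.0206, edgeR), while the Ant1-/- ND6 P25L difference was -0.25 (adjusted p = 0.275). The Ant1-/- call was lost without heart 36, 38, 23 or 24 (adjusted p up to 0.0928) and with libraries a and b only (adjusted p = 0.0764). It was also lost with Xist as a covariate (-0.32, adjusted p = 0.292). Xist had 3 to 59 counts in wild-type and 0 to 2 counts in Ant1-/- control vector hearts. Heart 23 held the 59 counts. Wild-type hearts 80, 81 and 83 with the Ant1 vector had 2, 0 and 1. Ddx3y, a gene of the Y chromosome, was at 228 to 242 and 242 to 260 CPM in these groups. Over all hearts Ddx3y was at least 196 CPM and Xist at most 1.76 CPM. Low Xist counts thus went with genotype among control vector hearts only. For this comparison that fit cannot fully separate Xist from genotype, and sex was not tested. For Grk5 within tables, heart 35 against hearts 23, 24 and 25 gave -0.45 to -0.39.

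Under the Ant1 vector Grk5 was 86.6, 80.5 and 97.0 CPM in wild type, 62.7, 74.9, 72.9 and 47.0 CPM in Ant1-/- and 66.7, 51.0 and 61.9 CPM in Ant1-/- ND6 P25L hearts, and all 7 mutant hearts were below the 3 wild-type hearts. It fell by 0.45 in Ant1-/- (adjusted p = 0.0422) and by 0.55 in Ant1-/- ND6 P25L hearts (SE 0.15, adjusted p = 0.0128). Heart 27, whose table means differ by a ratio of 1.32 for this gene, had the lowest value. Without hearts 27 and 37 the first became -0.33 (adjusted p = 0.0698) and the second -0.65 (adjusted p = 0.00225). Of the leave-outs, those of heart 20, 27, 80, 81 or 83 ended the Ant1-/- call (adjusted p up to 0.184) and those of heart 5 or 83 the other (adjusted p = 0.0633 and 0.0654). The Ant1-/- call was also lost with the compared groups alone (adjusted p = 0.0897), libraries a and b only (0.178) and no filter on low counts (0.0518). Without heart 8 the Ant1-/- ND6 P25L value was -0.58, adjusted p = 0.0294, and with hearts 61 and 91 read as Ant1 vector hearts its adjusted p was 0.0511. Within 2 tables heart 20 against wild type gave -0.55 to -0.51. Between vectors the log2 difference was 0.17 in Ant1-/-, -0.18 in Ant1-/- ND6 P25L and 0.13 in wild type, with adjusted p from 0.513 to 0.782.

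Of the adenylyl cyclases, which make cyclic AMP, Adcy5 (chr16:35154877-35305738) was at 106, 100.8, 86.1 and 129.7 CPM in wild-type control vector hearts, 81.6, 73.7 and 78.2 CPM in Ant1-/- and 72.5, 79.7 and 69.9 CPM in Ant1-/- ND6 P25L hearts. Both mutant groups were below all wild-type hearts. Adcy5 fell by 0.51 on the log2 scale in Ant1-/- ND6 P25L (1.43-fold lower, SE 0.16, adjusted p = 0.0378, edgeR). The Ant1-/- difference of -0.44 (SE 0.16) had an adjusted p of 0.0683, and 0.00906 without hearts 27 and 37. The Ant1-/- ND6 P25L call was lost without heart 20, 21, 22, 23, 24 or 70 (adjusted p up to 0.136). Wild-type heart 70 had the highest value, and without it the difference was -0.40. Against heart 70 in the 2 tables they share, Ant1-/- ND6 P25L heart 22 gave -1.08 to -0.81, and Ant1-/- heart 35 gave -0.38 to -0.15 against wild-type hearts 23, 24 and 25 in 3 tables.

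Under the Ant1 vector, Adcy5 was 98.2, 111 and 97.2 CPM in wild type, 68.7, 71.5, 70.6 and 107 CPM in Ant1-/- and 108.8, 68.6 and 87.6 CPM in Ant1-/- ND6 P25L hearts. Hearts 27 and 37 lay within the wild-type range and the other 5 mutant hearts below it. With all hearts the log2 differences from wild type were -0.37 (adjusted p = 0.155) and -0.21 (adjusted p = 0.423). Without heart 27, whose tables disagree for this gene, the Ant1-/- difference was -0.54 and past the threshold (adjusted p = 0.0154). For Ant1-/- ND6 P25L no single heart left out gave a call (lowest adjusted p = 0.142). It gave -0.40 (adjusted p = 0.0468) without both 27 and 37, where heart 37 had a table ratio of 1.02 for Adcy5. Adcy6 (chr15:98589973-98610076), the other main cardiac cyclase, ranged from 109.3 to 191 CPM, and its groups overlapped in all 8 pairwise comparisons. Its log2 difference from wild type with the control vector was -0.19 (95% interval -0.46 to 0.086) in Ant1-/- and -0.20 (-0.47 to 0.074) in Ant1-/- ND6 P25L.

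Prkaca (chr8:83972993-83996443), the main catalytic subunit of protein kinase A in the heart, was at 614, 527, 519 and 543 CPM in wild-type control vector hearts, 658, 637 and 543 CPM in Ant1-/- and 569, 679 and 612 CPM in Ant1-/- ND6 P25L hearts, with overlap and log2 differences of 0.15 and 0.17 (adjusted p = 0.259 and 0.220). Ant1 vector hearts had 476, 477 and 562 CPM in wild type, 551, 596, 622 and 630.0 CPM in Ant1-/- and 671, 709 and 646 CPM in Ant1-/- ND6 P25L hearts. The 3 Ant1-/- ND6 P25L hearts were above all wild-type hearts. Prkaca rose by 0.42 on the log2 scale there (1.34-fold, SE 0.094, adjusted p = 0.00365, edgeR), and the call held without any 1 of the 6 hearts (adjusted p 0.00328 to 0.0237), heart 8 included (0.45, adjusted p = 0.00737). It was lost with library table as a covariate (0.22, adjusted p = 0.261). No table holds both groups. Prkaca lies on chromosome 8 with Slc25a4, 37.76 Mb away, and 0.8454 Mb from Calr, which was at 492 to 556 CPM in wild-type and 2.52 to 3.61 CPM in Ant1-/- control vector hearts. The part of this neighbourhood in the Prkaca values was not tested.

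**Figure D3:**
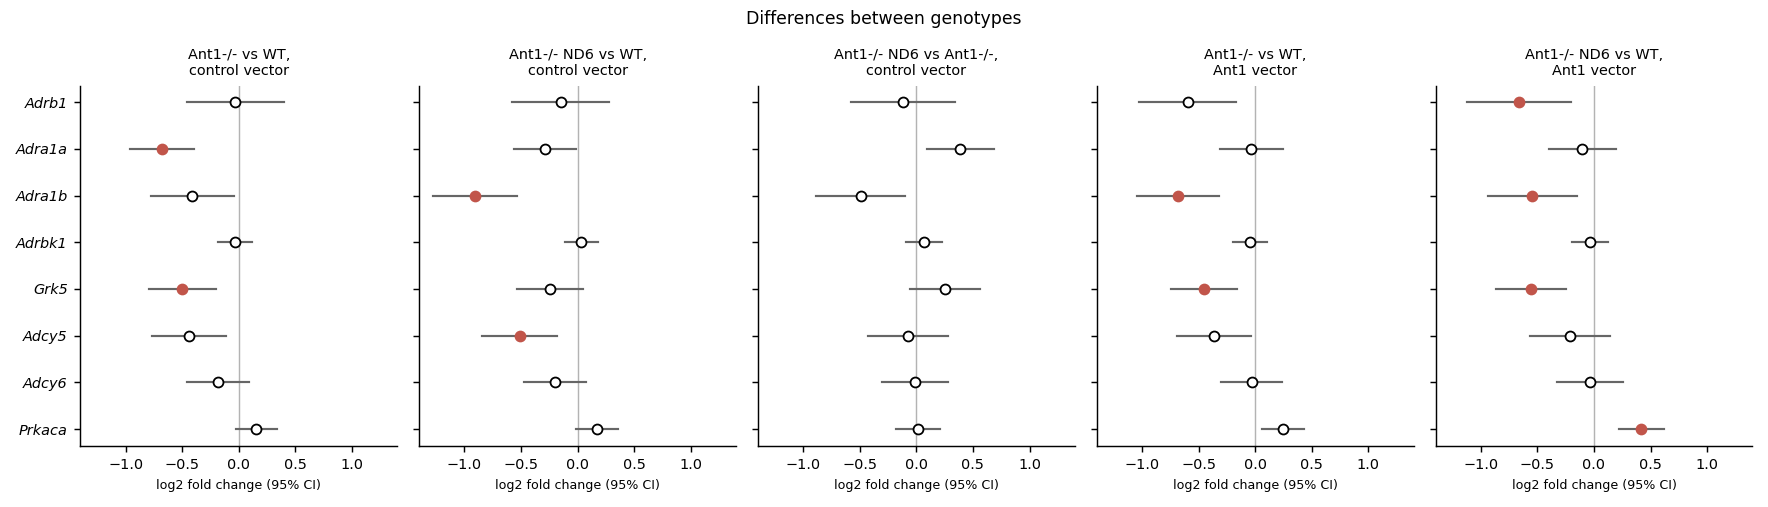
Log2 fold change with its 95% interval (horizontal axes) for the 8 genes in the 5 genotype comparisons, filled red where the adjusted p was under 0.05 in edgeR. Red points lie left of 0 for Adrb1, Adra1a, Adra1b, Grk5 and Adcy5 in at least 1 panel each, right of 0 for Prkaca in the last panel, and Adrbk1 and Adcy6 have none.

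Between vectors, no gene of the 8 passed the threshold in any genotype. In Ant1-/- hearts the widest differences were 0.37 for Adra1a (95% interval 0.090 to 0.65) and -0.42 for Adra1b (-0.79 to -0.057). In Ant1-/- ND6 P25L hearts all 8 lay between -0.18 (Grk5) and 0.26 (Adcy5, 95% interval -0.094 to 0.61). In wild type the widest was Adrb1, given above, followed by Adra1a at -0.27 (-0.55 to 0.0043). Hearts did not overlap for 0, 0 and 2 of the 8 genes in these 3 comparisons, where 18.2%, 24.9% and 10.5% of all genes did not. In the genotype comparisons with the control vector the counts without overlap were 4 (Ant1-/- against wild type, 26.7% of all genes), 3 (Ant1-/- ND6 P25L against wild type, 26.3%) and 3 (between the mutants, 25.3%), and with the Ant1 vector 2 (20% of all genes) and 4 (34.1%).

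**Figure D4:**
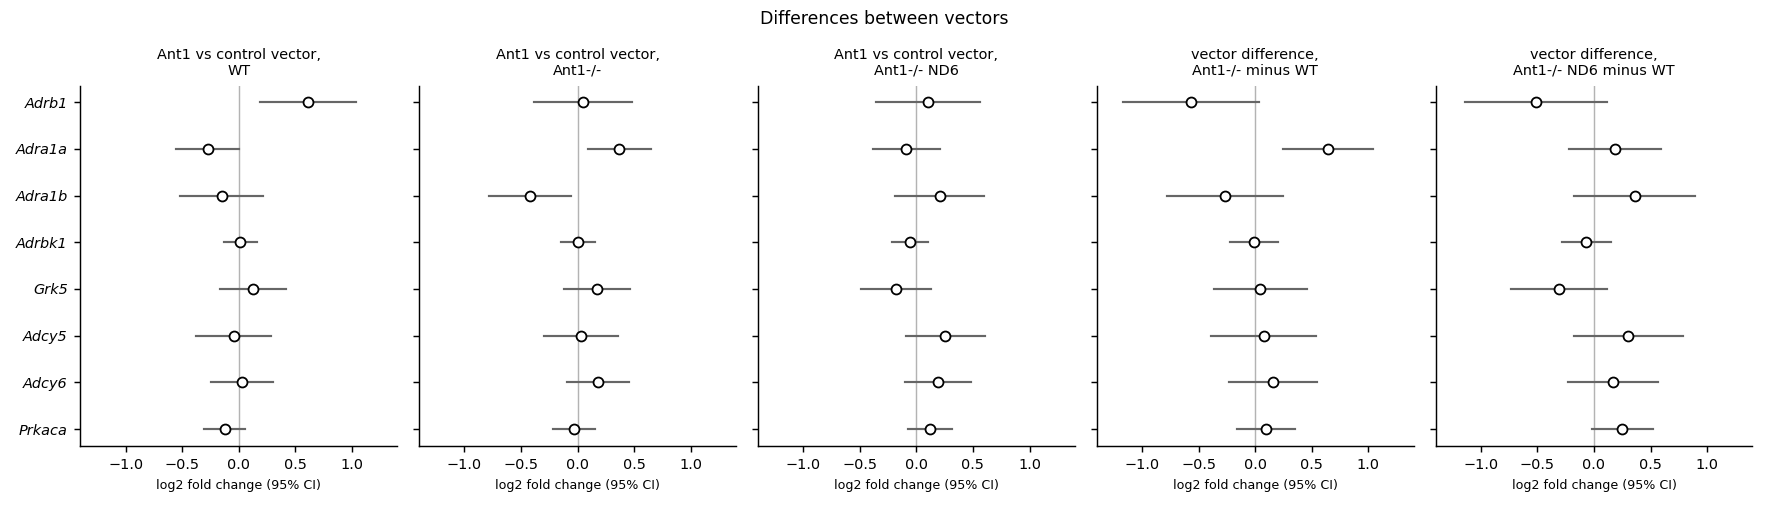
Log2 fold change with its 95% interval for the 8 genes between vectors in each genotype, and the difference of that change from wild type, in edgeR. No point is filled, since none passed an adjusted p of 0.05, and the intervals that leave out 0 are those of Adra1a and Adra1b in Ant1-/- hearts, Adrb1 in wild type and Adra1a in the Ant1-/- minus wild type panel.

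The other genes of the pathway, 126 with an amplicon in 11 lists by role, of which 123 were tested, show where the rest of the route differed. In Ant1-/- against wild-type control vector hearts, 26 of 123 passed in edgeR (11 higher, 15 lower, 21.1% beside 14.4% of all genes), with a median log2 change of -0.082 over the lists and -0.026 over all genes. In the list of catecholamine synthesis, uptake and breakdown, 0 of 9 were higher and 2 lower: Maob, the monoamine oxidase B gene, at a log2 change of -0.99 (SE 0.094, adjusted p = 2.95e-07) and Ddc, which makes dopamine from its precursor, at -1.84 (SE 0.49, adjusted p = 0.0136). The 8 neuron and Schwann cell markers were lower too, at 35.5 to 64.1 CPM in wild type and 26.3 to 29.0 in Ant1-/-, and their defining genes Th and Dbh were near 0 (at most 0.535 and 0.371 CPM in any heart). The part of those markers in the Ddc value was not tested. Without hearts 27 and 37, 35 of 123 passed (15 higher, 20 lower, beside 20.2% of all genes).

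Of 10 receptor kinases, arrestins and RGS proteins, 1 was higher (Adrbk2) and 3 were lower in the same comparison (14.4% of all genes called). RGS proteins shorten G protein signals. Rgs2 fell by 1.49 on the log2 scale (adjusted p = 0.000975), with 87.9 to 137 CPM in wild type and 38.4 to 42.5 CPM in the mutant, and Rgs4 and Rgs6 fell by 0.66 and 0.94 (adjusted p = 0.000207 and 0.000707). Among 16 G protein subunits Gnb3, a beta subunit, rose by 2.13 (adjusted p = 4.80e-09), with 9.44 to 14.8 CPM in wild type and 49.97 to 61.4 CPM in the mutant. The inhibitory alpha subunits Gnai1 and Gnai3 fell by 0.80 and 0.31 (adjusted p = 0.000856 and 0.0277). The list medians were -0.25 and -0.10.

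Of 17 further protein kinase A subunits, inhibitors and anchors, 3 were higher and 4 lower (14.4% of all genes called). Of the inhibitor genes, Pkig fell by 0.62 (adjusted p = 1.25e-05), with 274 to 342 CPM in wild type and 188 to 217 CPM in the mutant, and Pkib rose by 1.55 (adjusted p = 7.53e-05) at low level, with 1.10 to 1.32 CPM in wild type and 3.07 to 3.93 CPM in the mutant. The third inhibitor gene, Pkia, was at 275 to 311 and 255 to 336 CPM (0.088, adjusted p = 0.563). The anchors Akap1, which sits on mitochondria, and Akap5 rose by 0.47 and 1.60 (adjusted p = 0.00179 and 0.00395). Of 7 cyclic AMP effectors other than the kinase, Popdc2 and Rapgef4 (Epac2) rose by 0.77 and 0.65 (adjusted p = 6.21e-05 and 0.000122), and the pacemaker channel Hcn4 fell by 1.31 (adjusted p = 0.00909). Among 13 phosphodiesterases, which break cyclic AMP down, 1 passed: Pde8a rose by 0.77 (adjusted p = 2.21e-05). Of 18 heart substrates and phosphatase genes, 2 were higher (Ppp2ca and Kcnq1, by 0.31 and 0.40) and 0 lower. The alpha-1 branch effectors had 0 of 8 called in edgeR, 0 at an unadjusted p under 0.05 and 0 in DESeq2.

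Ant1-/- ND6 P25L control vector hearts, set against the same wild-type hearts, also had 26 of 123 called (11 higher, 15 lower, 21.1% beside 12.7% of all genes), and 36 without hearts 27 and 37 (17.8% of all genes). Rgs2 fell by 2.31 (adjusted p = 1.70e-05), with 18.3 to 27.4 CPM in the mutant, and Gnb3 rose by 2.49 (adjusted p = 3.77e-10), with 67.5 to 75.5 CPM. Prkar1a, a regulatory subunit of protein kinase A, rose by 0.47 (adjusted p = 0.000216), with 669.7 to 791 CPM in wild type and 946 to 1054 CPM in the mutant. Of the 18 substrates and phosphatase genes, 1 was higher and 3 lower: Mybpc3, cardiac myosin-binding protein C, rose by 0.82 (adjusted p = 0.000532), and Atp2a2, the calcium pump SERCA2, fell by 0.36 (adjusted p = 0.00317), as did the phosphatase inhibitors Ppp1r1b and Ppp1r1a by 1.28 and 0.96 (adjusted p = 0.00904 and 0.0410). Between the mutants, Atp2a2 alone of 123 passed in edgeR, -0.37 (adjusted p = 0.0221), beside 1.06% of all genes. At an unadjusted p under 0.05 there were 26, DESeq2 called 9, and without hearts 27 and 37 edgeR called 12 (3.89% of all genes).

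Between vectors, 9 of 123 passed in Ant1-/- hearts (4 higher, 5 lower, 7.32% beside 5.47% of all genes). Popdc2, which had been higher in Ant1-/- control vector hearts, fell by 0.66 (adjusted p = 0.00332), with 880.2 to 1005 CPM under the control vector and 561 to 666 CPM under the Ant1 vector, where wild-type control vector hearts had 498 to 629 CPM. Its relative Bves fell by 0.46 (adjusted p = 0.0137). Among 18 substrates and phosphatase genes, Pln (phospholamban), Cacnb2 (a calcium channel subunit) and Ppp1cb fell by 0.69, 0.48 and 0.33 (adjusted p = 0.00899, 0.0227 and 0.0242), and Tnni3 (cardiac troponin I) rose by 0.30 (adjusted p = 0.0219). Without hearts 27 and 37 the count was 18 (6 higher, 12 lower, beside 9.71% of all genes), 8 of them shared with the 9. The Popdc2, Pln and other Ant1-/- vector differences share their control vector hearts with the genotype comparison above.

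In Ant1-/- ND6 P25L hearts 9 of 123 passed between vectors as well (8 higher, 1 lower, 7.32% beside 2.53% of all genes). In the list of cyclic AMP-responsive transcription 4 of 13 were higher and 0 lower: Fos by 4.53, Nr4a1 by 3.33, Nr4a2 by 2.55 and Per1 by 1.27 (adjusted p = 0.000938, 0.0284, 0.0118 and 0.000882). These are immediate early and clock genes that many other stimuli raise. Per1 was at 109.2, 87.0 and 96.6 CPM with the control vector and 233, 237 and 235 CPM with the Ant1 vector. Nr4a1 was at 30.4, 38.4 and 26.3 and 225, 427 and 303 CPM. Heart 8, whose Slc25a4 lay in the control range, had 303 CPM of Nr4a1, within the range of hearts 37 and 5. Without it 4 of 123 passed (4 higher, 0 lower, beside 1.05% of all genes): Fos, Nr4a2 and Per1 did (4.55, adjusted p = 0.00353 for Fos), and Nr4a1 did not (3.36, adjusted p = 0.0592). Without hearts 27 and 37 the count was 10 (9 higher, 1 lower, beside 3.99% of all genes).

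The labels and titles of Ant1-/- ND6 P25L hearts 61 and 91 disagree on the vector. Their Slc25a4 was 169 and 151 CPM, above that of hearts 37, 5 and 8, with Nr4a1 at 23.8 and 50.6 and Per1 at 81.9 and 121 CPM. For both genes the 2 hearts lay on either side of the control vector range and below all 3 Ant1 vector hearts. Read as Ant1 vector hearts, as their titles are coded, they left 0 of 122 pathway genes called between vectors (adjusted p = 0.0908 for Fos, 0.164 for Nr4a1, 0.146 for Nr4a2 and 0.133 for Per1). The count over all genes then was 20, where it was 390 without them.

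Tests of whether the vector difference differed from that in wild type called 1 of 123 in Ant1-/- ND6 P25L hearts (0.273% of all genes), which was Per1 (1.52, adjusted p = 0.0134), and 0 of 123 in Ant1-/- hearts (0.5%). At an unadjusted p under 0.05 there were 19 and 31, and DESeq2 called 3 and 6. With hearts 27 and 37 left out edgeR called 4 (0.892% of all genes) and 6 (2.46%), with Fos, Nr4a1, Nr4a2 and Per1 at adjusted p = 0.00791, 0.0487, 0.00695 and 0.000753. Per1 passed without heart 8 (1.52, adjusted p = 0.0396) and did not with hearts 61 and 91 as Ant1 vector hearts (adjusted p = 0.427). In wild type 0 of 123 passed between vectors in edgeR, with 16 at an unadjusted p under 0.05 and 1 in DESeq2.

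With the Ant1 vector, Ant1-/- ND6 P25L hearts differed from wild type in 39 of 123 genes (21 higher, 18 lower, 31.7% beside 19.5% of all genes) and Ant1-/- hearts in 23 (11 higher, 12 lower, 18.7% beside 9.89%). Without heart 8 the first count was 34 (19 higher, 15 lower, beside 15% of all genes), and without hearts 27 and 37 it was 39 (18 higher, 21 lower, beside 19.6%). The Ant1-/- count without hearts 27 and 37 was 30 (12 higher, 18 lower, beside 13.7%). In Ant1-/- ND6 P25L hearts 8 of the 18 substrates and phosphatase genes were lower and 1 higher. They include Atp2a2 (-0.32, adjusted p = 0.00778), Ryr2, the ryanodine receptor (-0.58, adjusted p = 0.00980), Cacna1c, the L-type calcium channel (-0.33, adjusted p = 0.0368), Tnni3 (-0.25, adjusted p = 0.0306) and Sln, sarcolipin (-1.36, adjusted p = 0.00286). Without heart 8 the adjusted p was 0.0447 for Atp2a2, 0.0422 for Ryr2 and 0.00547 for Sln, while Cacna1c (0.122) and Tnni3 (0.0975) no longer passed, nor did Tnni3 with hearts 61 and 91 as Ant1 vector hearts (0.0672). Mybpc3 was the higher one (1.11, adjusted p = 4.34e-05). Ppp1cb and Ppp1r1b, genes of phosphatase control, were lower as well (-0.48 and -1.52, adjusted p = 0.000796 and 0.00313). Sln marks atrial muscle. The 5 atrial markers, Sln among them, summed to 1277 to 4676 CPM in these hearts against 4935 to 5477 in wild type. The part of that shift in the Sln value was not tested. Of the 13 transcription genes 6 were higher and 1 lower (2 and 1 with hearts 61 and 91 as Ant1 vector hearts), and of the 8 alpha-1 branch effectors 0 passed in edgeR, at an unadjusted p under 0.05 and in DESeq2.

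Genes of the other lists in these Ant1 vector hearts, which share no heart with the control vector groups, gave the following values against wild type. Gnb3 was at 10.1 to 12.8 CPM in wild type, 43.9 to 53.3 CPM in Ant1-/- and 40.7 to 70.4 CPM in Ant1-/- ND6 P25L, a rise of 2.06 and 2.29 on the log2 scale (adjusted p = 4.01e-08 and 1.31e-08, edgeR). Maob was lower, at -0.99 and -1.201 (adjusted p = 3.55e-07 and 6.24e-08), as was Rgs2, at -1.30 and -1.55 (adjusted p = 0.00343 and 0.000937). Among protein kinase A genes, Prkar1a rose by 0.39 and 0.55 (adjusted p = 0.00215 and 8.09e-05) and Pkig fell by 0.49 and 0.55 (adjusted p = 0.000220 and 8.46e-05). Pde8a rose by 0.76 and 0.94 (adjusted p = 5.94e-05 and 6.03e-06). Popdc2, higher in both mutants with the control vector, was at 0.23 and 0.22 here (adjusted p = 0.209 and 0.214), the second 0.35 and past the threshold without hearts 27 and 37 (adjusted p = 0.0290). Gnb3, Maob, Rgs2, Prkar1a, Pkig and Pde8a passed in both mutants without hearts 27 and 37 too, and in Ant1-/- ND6 P25L without heart 8. Many genes named above for Ant1-/- control vector hearts did not pass in Ant1-/- hearts here. Besides Popdc2 these were Ddc, Adra2b, Adra1d, Rgs6, Gnai1, Gnai3, Akap5, Hcn4, Ppp2ca and Kcnq1.

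**Figure D5:**
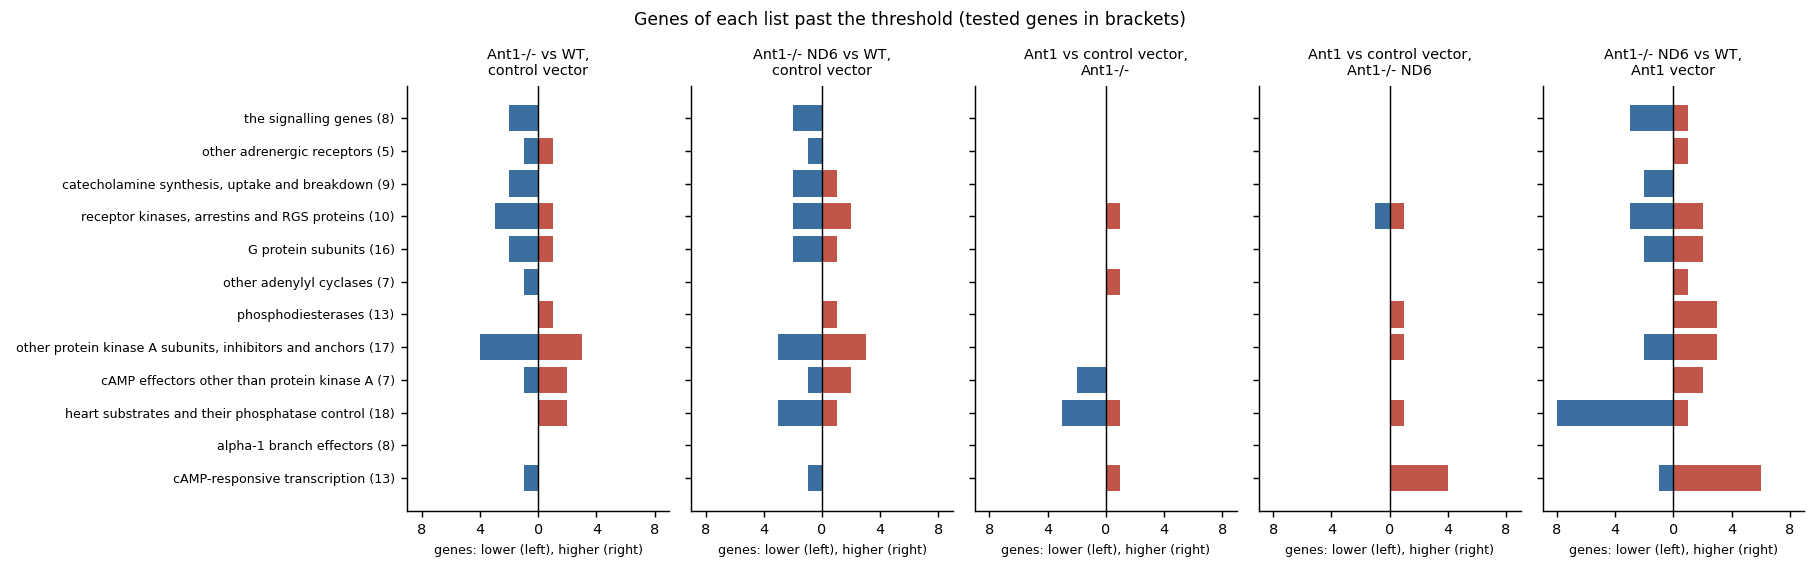
Number of genes of each list with an adjusted p under 0.05 in edgeR (horizontal axes, lower to the left in blue and higher to the right in red) in 5 comparisons, with the number tested in brackets. The alpha-1 branch effectors have no bar in any panel, and the longest bar is the 8 lower substrates and phosphatase genes of Ant1-/- ND6 P25L hearts with the Ant1 vector.

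Across the 22 hearts, the genes whose log2 CPM followed that of Adrb1 most closely among 9617 with a mean of at least 5 CPM were Mrps28 (Pearson r = 0.781, Spearman rho = 0.767), a mitochondrial ribosomal protein gene, Mterf3 (0.777, 0.732), a mitochondrial transcription and ribosome factor gene, and Gng11 (0.776, 0.703), a G protein gamma subunit. Hearts share tables and group structure, so these values are a description.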

How the data were processed

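The 14 deposited tables hold whole-number read counts per amplicon (1 amplicon per gene) for 112 AmpliSeq libraries, 8 in each table. The authors used mm10, per the submitters' processing notes. Not given in the sources used here are the aligner and counter. The series also has 3 single-nucleus samples, which were not analysed here. Counts of the libraries of a heart were summed, which gave 22 hearts in 7 groups, and p values rest on hearts. Libraries 80a and 80b, whose labels conflict, were left out.

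Genes with low counts were removed with edgeR 4.0.16 filterByExpr, size factors were TMM, and 1 model of all 7 groups (15 residual degrees of freedom) was fitted with the quasi-likelihood F-test and Benjamini-Hochberg adjustment over all tested genes at 0.05. CPM values are counts scaled to TMM-adjusted heart totals. A count in 1 amplicon cannot be compared in level between genes, and repeat libraries were taken as 1 heart because number, genotype and code agree. Alternatives used no filter, other size factors, DESeq2 1.42.0, each heart left out, the compared groups alone, other readings of hearts 61, 91 and 80, fewer libraries, Xist as a covariate and, with limma 3.58.1 (R 4.3.3), library table as a covariate on single libraries. Leaving out hearts 27 and 37, or library 27a, was chosen after seeing the data.

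The values of 1 listed gene are not reported here. The genes and lists were chosen with earlier results of these data known. Within each list, up to 4 genes with the smallest adjusted p among those called are named. Others named in the text, among them Ryr2, Cacna1c and Tnni3, were chosen after their values were seen. Gene positions are from GENCODE M21 on GRCm38, and promoter windows from RefSeq on GRCm38.p6.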

Additional observations from a re-analysis of the deposited data

Results flagged for a closer look

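Adcy5 in the Ant1-/- hearts given the Ant1 vector had 1 heart far from the others. Heart 27 was at 106.6 CPM and the next heart at 71.5 CPM, a gap of 0.926 of the group's whole range, above Dixon's critical value for 4 samples. Groups of 3 were not tested, and chance alone puts about 1 in 20 groups past that value. The libraries of this heart lay at 68.7 to 87.3 CPM in one table and 116.9 to 156 CPM in the other.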

How the results depend on the processing

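No paired analysis was possible because the heart numbers shared between groups mark different animals. Of 1480 gene values under alternatives, 1410 stayed on the same side of the threshold, 43 calls were lost and 27 gained, and 85 had another sign, none of these with a call. Adra1a in Ant1-/- and Adra1b in Ant1-/- ND6 P25L hearts, both against wild type with the control vector, were called in every alternative run. The cause of the changes below was not tested.

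Of the 8 genes, the number called in Ant1-/- against wild type with the control vector was 2. It was 4 with the compared groups alone, 4 with library table as a covariate, 4 without hearts 27 and 37, 1 with libraries a and b only, 1 with Xist as a covariate and 1 to 3 with a heart left out. For Ant1-/- ND6 P25L against wild type (2) it was 1 to 2 with a heart left out. Between the mutants (0) it was 1 with the compared groups alone and 3 with library table as a covariate. Between vectors in Ant1-/- (0) it was 1 without hearts 27 and 37 and 0 to 1 with a heart left out. With the Ant1 vector, Ant1-/- against wild type (2) gave 1 with no filter, 4 in DESeq2, 0 with the compared groups alone, 0 with libraries a and b only and 0 to 2 with a heart left out. Ant1-/- ND6 P25L against wild type (4) gave 2 with libraries a and b only and 2 to 3 with a heart left out. The difference of the vector effect in Ant1-/- from wild type (0) gave 2 with library table as a covariate. The share over all genes moved under the same alternatives. In the first comparison it was 14.4%, and 14.8%, 18.9%, 20.2%, 10.8% and 10% in the order given. Between the mutants it was 1.06%, then 6.05% and 12.6%, and between vectors in Ant1-/- 5.47%, then 9.71%. With the Ant1 vector it was 9.89%, then 4.97%, 12.4%, 6.29% and 6.63% for Ant1-/-, and 19.5%, then 13.8% for Ant1-/- ND6 P25L. For the difference of the vector effect it was 0.5%, then 3.23%. That table fit could not estimate the 3 vector comparisons.

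Counts over all genes moved more. Leaving out a heart and the other alternatives together gave 222 to 1491 in Ant1-/- between vectors (842 in the fit of all hearts), 20 to 822 in Ant1-/- ND6 P25L (390) and 0 to 159 in wild type (18). With the control vector they gave 1366 to 3098 for Ant1-/- (2220) and 999 to 2992 for Ant1-/- ND6 P25L (1954) against wild type, and 46 to 1948 between the mutants (163). With the Ant1 vector they gave 782 to 2100 (1524) and 1878 to 3285 (3003), and for the 2 differences of the vector effect 10 to 498 (77) and 2 to 219 (42). The lowest count between vectors in Ant1-/- ND6 P25L, 20, came with hearts 61 and 91 read as Ant1 vector hearts.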

Other observations

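Hearts 61 and 91, whose labelled vector and title code conflict, entered no comparison. Their Adrb1 was 8.04 and 6.17 CPM, Adra1a 17.0 and 15.8 CPM, Grk5 84.9 and 69.9 CPM, Adcy5 74.7 and 91.4 CPM and Prkaca 600.2 and 650.4 CPM. Nr4a1, the immediate early gene that was higher with the Ant1 vector in Ant1-/- ND6 P25L hearts, was 23.8 and 50.6 CPM in them and Per1 81.9 and 121 CPM. In libraries 80a and 80b, assigned to no group, Adrb1 was 10.4 and 10.9 CPM of the library total, Adra1b 59.8 and 60.3 and Prkaca 466 and 520.0.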
